A study of Mus musculus with 2 samples.

Results

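The Spp1-high cells described here are large peritoneal macrophages of an Ankrd22-/- mouse library that held 5 or more UMIs (unique molecular identifiers, each standing for 1 captured transcript) of Spp1, the gene of the secreted phosphoprotein osteopontin. They were selected on their Spp1, Prg4 and class II UMI counts in the knockout library only, from barcodes with 500 or more genes, at most 10% mitochondrial UMIs, 8000 or more UMIs in all and 5 or more UMIs of Prg4. The summed class II genes H2-Aa, H2-Ab1, H2-Eb1 and Cd74 had to lie under 5 per 10000 UMIs. By this rule 1539 of 5236 large macrophages were Spp1-high, out of 13021 barcodes deposited for both libraries. The comparison cells were the 2379 large macrophages of the same library with 0 Spp1 UMIs, called Spp1-zero below, and 1318 cells with 1 to 4 Spp1 UMIs lay between.

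The study profiled peritoneal lavage cells that had been sorted as F4/80+ by FACS, with 1 library from Ankrd22-/- mice and 1 from Ankrd22+/+ mice, here called knockout and wild type. Libraries were made with 10x Genomics 3′ chemistry (v3), which counts transcripts near their 3′ end. The labels give no treatment, age, sex or number of animals, and neither the cells in which Ankrd22 was lost nor a pooling of animals was stated in the sources used here. With 1 library for each genotype, genotype, animal and library cannot be told apart. Cells of a library are not replicates, so no test was made, and every interval below is a 95% interval for counting error only.

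Large peritoneal macrophages are the resident macrophages of the peritoneal cavity. They depend on the transcription factor GATA6 and on retinoid signals, express the lubricin gene Prg4, and carry little class II. Osteopontin is an extracellular matrix protein and cytokine that binds integrins and CD44, and thrombin and matrix metalloproteases cleave it into fragments with altered integrin binding. In macrophages it is known from wound repair, foam cells and lipid-associated populations in obesity, fibrosis and tumours.

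The knockout library held 6706 barcodes with a median of 15790.5 UMIs, and the wild type library 6315 with a median of 14569 UMIs. Both libraries shared 15 barcodes, 1 of them a Spp1-high cell. Ankrd22 had 0 UMIs in both libraries, so its own transcript did not check the labels. The 9 markers of large macrophages that the rule did not use were all detected in Spp1-high cells, at a summed 3927 CPM (UMIs of the gene scaled to 1000000 UMIs of the group) against 4052 CPM in Spp1-zero cells. Among them, the adhesion gene Icam2 was at 1394 and 1317 CPM, the F4/80 gene Adgre1 at 620 and 647 CPM and the phagocytic receptor gene Timd4 at 139 and 128 CPM. Gata6 was at 180 CPM in Spp1-high and 169 CPM in Spp1-zero cells. The lysozyme gene Lyz1, also among the 9, was lower in Spp1-high cells, at 316 against 553 CPM.

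Spp1 (ENSMUSG00000029304) lies on the + strand of chromosome 5, from 104435118 to 104441050 in GENCODE M21 on build GRCm38. It spread widely among the chosen cells, and the values that follow describe the choice rather than test it. Spp1-high cells made up 29.4% of knockout large macrophages (exact interval 28.2% to 30.6%). They held a median of 25 Spp1 UMIs and a highest value of 246. Per 10000 UMIs, the lowest of them held 0.983, the median 12.9 and the highest 158 Spp1 UMIs. The 285 cells of 5 to 9 UMIs, 484 of 10 to 24, 393 of 25 to 49, 266 of 50 to 99 and 111 of 100 or more formed a long upper tail. The 770 cells of 25 or more UMIs held 80.3% of all Spp1 UMIs of knockout large macrophages, and the 1539 Spp1-high cells together held 96.4%. Just outside the threshold, 101 cells of 4 UMIs were at 202 CPM of Spp1, and just inside it 76 cells of 5 UMIs were at 277 CPM.

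In the wild type library the same rule found 4193 large macrophages. Of these, 20 held 5 or more Spp1 UMIs, a share of 0.477% (0.292% to 0.736%), and 87 held any, a share of 2.07%. Any Spp1 UMI was found in 2857 knockout large macrophages, 54.6%. One wild type cell stood apart with 175 Spp1 UMIs, and the next highest held 37. Among 692 knockout cells that failed only the class II limit, 75 were Spp1-high, a share of 10.8% (8.62% to 13.4%). In 26 knockout barcodes that carried B cell markers, which should lack Spp1, 0 held 5 UMIs and 2 held at least 1, at a lower median depth of 4094.5 UMIs. No Spp1-high cell was found among 23 barcodes with fewer than 5 Prg4 UMIs, which allows a share of up to 14.8% by the exact interval.

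**Figure D1:**
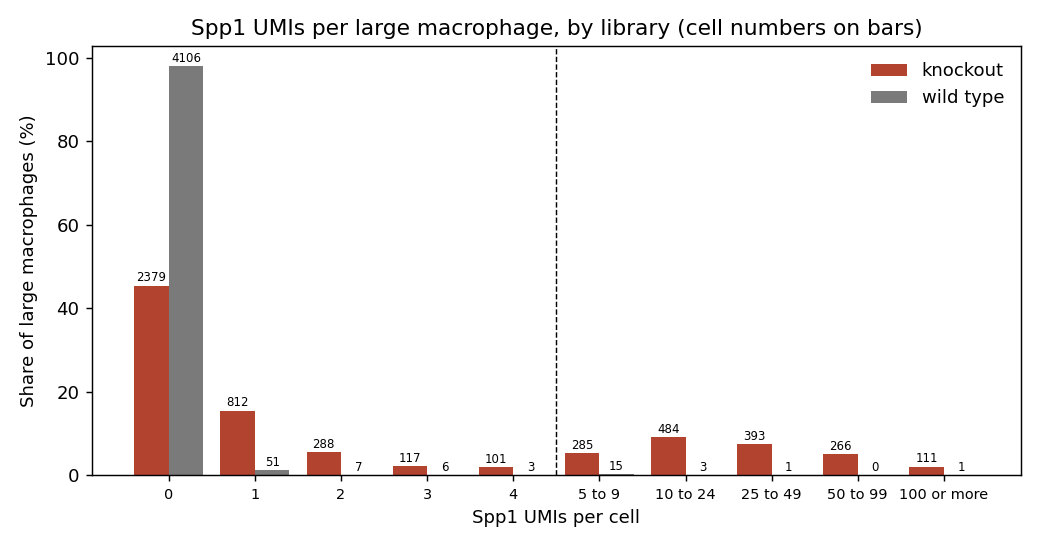
Share of large macrophages (%) by their number of Spp1 UMIs, for the knockout library (red, 5236 cells) and the wild type library (grey, 4193 cells); cell numbers stand on the bars, and the dashed line marks the threshold of 5 UMIs. In the wild type library 4106 cells held 0 UMIs, while 1539 knockout cells lie right of the line.

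Spp1-high cells were deeper than Spp1-zero cells, with a median of 18174 against 15397 UMIs. Equal numbers of both were therefore drawn within bins of total UMIs without Spp1. This left 1437 cells in each class, with medians of 17676 and 17589 UMIs and summed totals of 26825900 and 26752300 UMIs. Thinned to 8000 UMIs, the median cell held 2360 genes in the Spp1-high and 2400 in the Spp1-zero class. Mitochondrial transcripts made up a median of 1.54% and 1.43%. Of the rule's own genes, Prg4 was at 10463 CPM in Spp1-high and 9865 CPM in Spp1-zero cells, and Cd74 was lower, at 36.9 and 47.4 CPM.

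Most of the transcriptome differed little between the classes. Among 5021 genes of 20 CPM or more in the higher class, 95.1% lay within 1.2-fold, with a median log2 ratio of CPM + 1 of -0.03. Past 1.5-fold, 10 genes (0.199%) were higher and 29 genes (0.578%) lower in Spp1-high cells. The 10 higher genes were Cdkn2a, Sdsl, Hdc, Rad51b, Ofcc1, Pi16, Cldn10, Vmn2r26, Enpp5 and Vcan. Of the 29 lower genes, 4 were haemoglobin genes and 8 were genes of dividing cells, both described below. Matched on cluster as well as depth, 7 genes were higher and 16 lower, and without depth matching 7 and 19. Against cells of 1 to 4 Spp1 UMIs 2 were higher and 16 lower.

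The cell cycle inhibitor gene Cdkn2a had the largest ratio among the higher genes. It was at 112 CPM in Spp1-high and 52.4 CPM in Spp1-zero cells, for a log2 ratio of 1.08 (0.99 to 1.17). After thinning, 24.8% (22.6% to 27.1%) of Spp1-high and 13.3% (11.6% to 15.2%) of Spp1-zero cells held a Cdkn2a UMI. These 3′ counts cannot separate the Cdkn2a transcripts that encode its unlike proteins, and its neighbour Cdkn2b was at 19.8 and 16.3 CPM. Against cells of 1 to 4 Spp1 UMIs the Cdkn2a ratio was 0.52, and matched on cluster as well as depth it was 0.80.

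Hdc, the enzyme that makes histamine from histidine, was at 134 CPM in Spp1-high and 75.9 CPM in Spp1-zero cells, for a log2 ratio of 0.82 (0.74 to 0.89). It was seen in 54.3% and 36.7% of thinned cells. Hdc is also a mast cell gene, and the mast cell markers Cpa3, Mcpt4, Cma1, Tpsb2, Tpsab1, Fcer1a, Kit and Ms4a2 were all at 0 UMIs in the Spp1-high class. Cells with both Cdkn2a and Hdc made up 14.1% (12.4% to 16%) of Spp1-high and 5.98% (4.81% to 7.34%) of Spp1-zero cells. Each gene alone was seen in more Spp1-high cells, so a higher joint share follows from the choice of genes. Whether the genes of a pair tend to share cells was not tested.

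Of the next genes Pi16 passed 1.5-fold, and Lrg1, Wnt2, Loxl2, Itgb7 and Klk8 did not. Pi16, a peptidase inhibitor, was at 149 and 91.9 CPM in Spp1-high and Spp1-zero cells, for a log2 ratio of 0.70. Lrg1, a secreted glycoprotein known to modulate TGF-beta signalling, was at 885 and 641 CPM, for a log2 ratio of 0.47 (0.44 to 0.49). The signalling ligand Wnt2 was at 74.7 and 50.6 CPM, and Loxl2, which cross-links collagen, at 57.2 and 40.1 CPM. Itgb7, an integrin subunit, was at 205 and 158 CPM. The secreted protease gene Klk8 was at 77.4 and 59.3 CPM. Cells with both Hdc and Pi16 made up 37.2% of Spp1-high and 21% of Spp1-zero cells, which again follows from the choice of genes.

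Of the remaining leading genes Vmn2r26 passed 1.5-fold. Ptgis, the prostacyclin synthase, was at 646 and 473 CPM, for a log2 ratio of 0.45 (0.42 to 0.48), and was seen in 94.4% and 85.4% of thinned cells. Vmn2r26, a member of the large vomeronasal receptor family, was at 220 and 140 CPM, for a log2 ratio of 0.65. Gbp2b, an interferon-induced GTPase with close relatives, was at 349 and 265 CPM. Reads shared among relatives could move the last pair of genes. The ubiquitin ligase gene Nedd4, the nuclear co-regulator Pelp1, the methyl-DNA reader Mbd1 and the chaperone gene Hspa1a had log2 ratios of 0.46, 0.40, 0.38 and 0.36. Hspa1a was at 0.02 when matched on cluster as well as depth, and Mbd1 at 0.13 against cells of 1 to 4 UMIs. These 15 genes span ratios from 0.36 to 1.08, and 4 of them passed 1.5-fold.

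Of the 15 lowest genes 12 were at least 1.5-fold lower in Spp1-high cells, with log2 ratios from -2.58 to -0.51 over the 15. Apoe, the apolipoprotein that carries lipid out of macrophages, was at 5338 CPM in Spp1-high and 10154 CPM in Spp1-zero cells, for a log2 ratio of -0.93 (-0.94 to -0.92). It was seen in every thinned cell of both classes, so the difference was one of level per cell. Pltp, Abca1 and Cd36 did not pass 1.5-fold. Pltp, a phospholipid transfer protein, was at 380 and 543 CPM, for a log2 ratio of -0.51. The cholesterol exporter Abca1 was at 30.2 and 44.4 CPM, for a log2 ratio of -0.54, and the lipid scavenger receptor Cd36 at 167 and 225 CPM, for a log2 ratio of -0.43.

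Chil3, Retnla, Arg1 and F13a1, which are used as marks of alternative activation, were each at least 1.5-fold lower. Chil3, a chitinase-like secreted protein with close relatives, was at 194 CPM in Spp1-high and 497 CPM in Spp1-zero cells, for a log2 ratio of -1.36 (-1.40 to -1.31). It was seen in 43.9% (41.3% to 46.5%) and 56.6% (54.0% to 59.2%) of thinned cells. Retnla, which encodes the secreted protein RELM alpha, was at 27.4 and 168 CPM, for a log2 ratio of -2.58. It was seen in 14.8% and 22% of thinned cells, but its UMIs were unevenly held. The top 1% of Spp1-zero cells held 54.7% of them, and with the top 1% of each class left out the ratio was -1.97. Arg1, which breaks arginine down to ornithine, was at 172 and 262 CPM, for a log2 ratio of -0.61, and F13a1, the coagulation factor XIII A chain, at 28.7 and 51.5 CPM. Cells with both Chil3 and Arg1 made up 17.3% of Spp1-high and 25% of Spp1-zero cells, as follows from picking 2 lower genes.

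Lyz1, Fcna, Marco, Clec2g, Clec4a3, Cd52 and Maf were at least 1.5-fold lower too. Lyz1, a lysozyme, was at 316 CPM in Spp1-high and 553 CPM in Spp1-zero cells, for a log2 ratio of -0.80. Fcna, the soluble lectin ficolin A, was at 306 and 528 CPM, for a log2 ratio of -0.78. Marco, a scavenger receptor for bacteria, was at 11.3 and 43.7 CPM, for a log2 ratio of -1.86 (-2.03 to -1.69). Fcgr4, an activating Fc receptor, was at 47.7 and 69.5 CPM. The lectin genes Clec2g and Clec4a3 had log2 ratios of -1.26 and -0.60, and the surface glycoprotein gene Cd52 one of -0.73. The transcription factor gene Maf had a ratio of -0.67 and the scaffold gene Iqgap2 one of -0.54. Fcgr4 and Iqgap2 did not pass 1.5-fold. None of the 13 measured toll-like receptors and C-type lectins of the list used, nor of the 7 Fc receptors, was 1.5-fold lower.

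How evenly the leading genes were held differed from gene to gene. With the top 1% of cells of each class left out for each gene, 15 of the 15 highest and 15 of the 15 lowest genes kept their direction. The share of thinned cells with a UMI lay on the same side as the level for 15 of the highest and 14 of the lowest genes. The exception was Apoe, with every thinned cell positive. Share intervals did not overlap for 13 and 12 of them. Stmn1, a microtubule regulator of dividing cells, was seen in only 6.33% and 9.39% of thinned cells, and the top 1% of cells held 57% and 43.6% of its UMIs. Its log2 ratio of -0.95 was -0.15 without dividing cells and -0.09 when matched on cluster as well as depth.

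Promoters of the genes at the ends of this comparison are shown because these genes differed between the classes of one library. Each is the 250 bases before the start of the RefSeq transcript, on build GRCm38.p6, written 5′ to 3′ on the strand of the gene. Capitals mark matches, on either strand, to 1 of 6 short motifs. Searched were ACCACA for the RUNX factors, GGAAGT for the ETS family, TGANTCA for the AP-1 dimers, CACGTG for the E-box that MITF and USF bind, CCAAT for the box of that name, and AGATAA for the GATA factors. No matches overlapped one another. RefSeq starts differ from the edges of GENCODE genes, and the Hdc window lies inside the GENCODE span of Hdc. The genes and motifs were chosen after their values and the Spp1 promoter had been seen. Spp1 and Cdkn2a each have 2 listed starts, and the window of the first is shown. Windows are listed as chr5:104434861-104435110 on the + strand for Spp1 and chr4:89294620-89294869 on the - strand for Cdkn2a. The others are chr2:126618679-126618928 on the - strand for Hdc, chr16:48842359-48842608 on the + strand for Retnla, and chr3:106167565-106167814 on the - strand for Chil3.
Spp1: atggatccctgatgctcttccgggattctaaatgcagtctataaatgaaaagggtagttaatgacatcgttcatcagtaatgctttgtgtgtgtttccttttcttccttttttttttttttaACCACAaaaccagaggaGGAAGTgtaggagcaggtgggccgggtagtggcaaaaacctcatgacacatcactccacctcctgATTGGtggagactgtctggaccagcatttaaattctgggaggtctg
Cdkn2a: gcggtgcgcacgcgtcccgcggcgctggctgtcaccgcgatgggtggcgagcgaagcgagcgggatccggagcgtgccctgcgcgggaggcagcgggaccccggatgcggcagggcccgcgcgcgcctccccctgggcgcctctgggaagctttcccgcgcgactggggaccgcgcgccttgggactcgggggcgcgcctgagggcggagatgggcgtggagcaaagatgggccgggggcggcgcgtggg
Hdc: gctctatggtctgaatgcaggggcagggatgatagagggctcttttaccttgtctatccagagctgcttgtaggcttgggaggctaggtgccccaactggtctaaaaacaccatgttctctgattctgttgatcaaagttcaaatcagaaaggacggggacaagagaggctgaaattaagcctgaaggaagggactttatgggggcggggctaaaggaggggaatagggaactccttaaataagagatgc
Retnla: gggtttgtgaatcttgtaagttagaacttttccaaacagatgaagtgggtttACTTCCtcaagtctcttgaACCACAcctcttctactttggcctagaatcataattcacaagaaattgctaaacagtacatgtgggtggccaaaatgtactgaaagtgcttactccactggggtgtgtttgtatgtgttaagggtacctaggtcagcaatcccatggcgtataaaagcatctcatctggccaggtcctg
Chil3: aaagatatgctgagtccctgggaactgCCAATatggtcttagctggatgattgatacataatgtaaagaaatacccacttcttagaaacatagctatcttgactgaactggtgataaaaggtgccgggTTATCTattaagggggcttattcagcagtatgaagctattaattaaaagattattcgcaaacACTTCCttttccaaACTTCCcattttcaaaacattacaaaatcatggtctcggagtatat
The Spp1 window held a RUNX match 128 bases and an ETS match 111 bases before the start, and a CCAAT box on the opposite strand at 46 bases. The Retnla window held 1 RUNX and 1 ETS match, and the Chil3 window 2 ETS, 1 CCAAT box and 1 GATA match. None of these letters was found in the Cdkn2a and Hdc windows. Among 32851 promoter windows of this length, 14% held the RUNX letters, 19.7% those of ETS, 6.75% of AP-1, 6.02% of the E-box, 33.8% of the CCAAT box and 9.99% of GATA.

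Some of the leading genes varied with the amount of Spp1 and not only across the threshold. In cells of 12000 to 20000 UMIs, 5 classes were compared: 0, 1 to 4, 5 to 9, 10 to 24 and 25 or more Spp1 UMIs, with 1303, 674, 152, 263 and 360 cells. Apoe stood at 11187, 9686, 7088, 5875 and 4478 CPM from the lowest to the highest class. Chil3 stood at 480, 348, 225, 203 and 132 CPM, Retnla at 103, 94.2, 41.4, 23.2 and 19.6 CPM, and Marco at 40.6, 35.0, 12.1, 8.12 and 6.99 CPM. Each of these was lower in every next class.

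Lrg1 stood at 678, 730, 827, 886 and 999 CPM and Pi16 at 91.5, 115, 136, 147 and 161 CPM, each higher in every next class. Cdkn2a was uneven, at 66.8, 103, 70.7, 141 and 131 CPM, and Hdc reached 141 CPM in the class of 5 to 9 UMIs and stayed near it, at 149 and 130 CPM. A steady order over all 5 classes held for 4 of the 15 highest and 8 of the 15 lowest genes. In the class of 25 or more UMIs, 15 of 15 and 15 of 15 lay on their side of the Spp1-zero class. In the class of 1 to 4 UMIs, where Spp1 was at 103 CPM, all 30 already lay on that side. The 30 genes were picked by comparing cells of 5 or more UMIs with these same Spp1-zero cells. Their side in the upper classes was thus set by the choice. The 1 to 4 class shares the Spp1-zero cells with it, so these counts are a description.

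**Figure D2:**
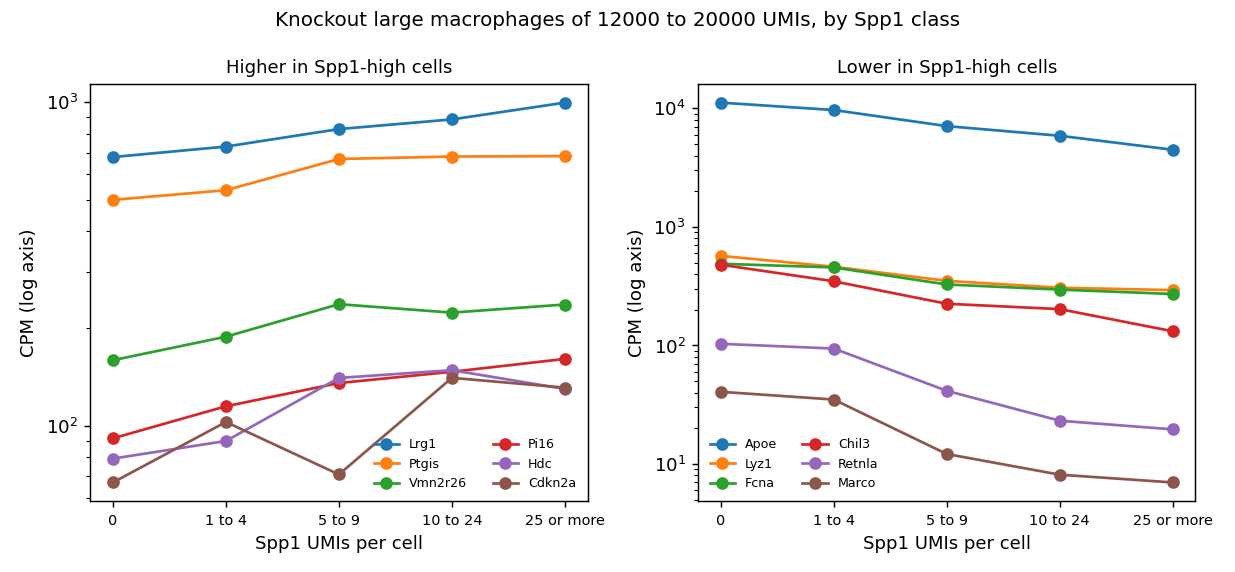
Levels (CPM, log axis) of 6 genes higher (left) and 6 genes lower (right) in Spp1-high cells, by Spp1 UMIs per cell, in knockout large macrophages of 12000 to 20000 UMIs; each point is the sum over the cells of a class. Apoe goes from 11187 to 4478 CPM along the axis, Lrg1 from 678 to 999 CPM, and Cdkn2a dips to 70.7 CPM at 5 to 9 UMIs.

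Gene lists were described by counts over members of a mean of 5 CPM or more, beside the same over all 8669 such genes. Over all of them the median log2 ratio was -0.05, and 25 (0.288%) were higher and 71 (0.819%) lower by 1.5-fold. Of all of them 65% lay below 0 and 35% above, which is the background for the counts of sign that follow. Of osteopontin's receptors, 7 were measured, with a median of 0.11 and none past 1.5-fold. Its receptor Cd44 was at 85.2 CPM in Spp1-high and 114 CPM in Spp1-zero cells, for a log2 ratio of -0.41, while the integrin subunits Itgb1 and Itga4 had ratios of 0.13 and -0.16. The 4 measured enzymes that modify or cleave osteopontin all lay below 0, with Ctsb at -0.19, Ctsd at -0.17 and the kinase gene Fam20c at -0.18. Of 17 transcription factors reported at Spp1, none passed 1.5-fold, and Hif1a was at -0.21. Of 4 measured relatives and neighbours of Spp1, none passed 1.5-fold either.

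Lipid-associated genes lay on both sides of 0. Of 18 lipid-associated macrophage genes, 0 were 1.5-fold higher and 2 were lower, with Syngr1 at 0.48, the tetraspanin gene Cd63 at 0.33, Cd36 at -0.43 and Apoe at -0.93. The lowest ratio of the list was -1.14, in a member under the mean of 20 CPM set for naming. Of 18 genes of cholesterol efflux and lipid storage, 16 lay below 0, with a median of -0.22, and 1 was 1.5-fold lower. Of 10 genes of alternative activation, 4 were 1.5-fold lower and none higher, with a median of -0.38. The 4 are Retnla, Chil3, F13a1 and Arg1, all among the lowest genes above. These lists were chosen with earlier results of these data known, so their direction is a description.

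Of 31 genes of the resident large macrophage programme, 2 were 1.5-fold lower, Marco and Lyz1, and the median was 0.02. Tgfb2, a TGF-beta ligand, was at 529 CPM in Spp1-high and 442 CPM in Spp1-zero cells, for a log2 ratio of 0.26, and the acute phase gene Saa3 at a ratio of -0.32. Among 14 complement genes the median was -0.16, with C1qa at -0.37 and C1qc at -0.18. Of 17 efferocytosis and scavenger receptor genes 1 was higher and 1 lower by 1.5-fold, and Mertk was at -0.22. Of 7 genes of small and recruited macrophages 2 were lower, with Csf1r at -0.20 and Trem2 at -0.17. The 7 Fc receptor genes had a median of -0.08, with Fcgr2b at -0.35 and Fcgr1 at 0.29.

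Inflammatory and stress genes differed in both directions. Of 12 cytokine and chemokine genes 1 was higher and 1 lower by 1.5-fold. The lower one, the neutrophil chemokine gene Cxcl1, was at 29.7 and 49.8 CPM, for a log2 ratio of -0.72. Over the alternatives its ratio ran from -0.89 to -0.14. Matched on cluster as well as depth, 0 of the 12 genes were 1.5-fold lower. The monocyte chemokine gene Ccl2 had a ratio of 0.39. Immediate early genes had a median of 0.06 over 20 genes, with Ier3 at 0.26 and Ier5 at -0.39. The 16 heat shock genes had a median of 0.04, with Dnajb1 at 0.25 and Hspb1 at 0.36 (-0.03 in cells of 12000 to 20000 UMIs). The interferon lists had medians of 0.09 (type I, 18 genes) and 0.02 (gamma, 13 genes), with Ifi27l2a at 0.29 and the transcription factor gene Irf8 at -0.61. The 10 class II and presentation genes, which overlap the rule, had a median of -0.19.

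Adhesion, matrix and housekeeping lists lay near 0. Over 41 genes of actin, adhesion and migration the median was 0.02. The calcium-binding protein gene S100a6 was at 2711 CPM in Spp1-high and 2169 CPM in Spp1-zero cells, for a log2 ratio of 0.32, and Anxa5, which binds phosphatidylserine, was at 21 and 43.1 CPM. The median of 11 matrix and protease genes was 0.02, with 1 past 1.5-fold, the proteoglycan gene Vcan at 0.59. Of 63 ribosomal protein genes 57 lay above 0, with a median of 0.05. The 70 nuclear-encoded respiratory chain genes had a median of 0.04 and the 13 mitochondrially encoded genes one of 0.07. The 11 iron and haem genes had a median of -0.12, with Hmox1 at -0.31, and the 24 NRF2 and redox genes one of -0.02, with 1 past 1.5-fold. A further 16 lists, of metabolism, lysosome and signalling, had medians from -0.10 to 0.05, with 0 of 245 member entries 1.5-fold higher and 2 lower. Scaling by TMM or by the median of ratios moved every ratio by 0.05 or 0.04, enough to turn the sign of a list median this near 0.

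Genes of dividing cells were lower in Spp1-high cells, and this difference changed with the cells compared. Of 14 genes of G2 and mitosis 12 were 1.5-fold lower, with a median of -0.96, and Mki67, a proliferation mark, was at 15.4 and 35.1 CPM. All 17 genes of G1 and S phase lay below 0, with a median of -0.34 and none past 1.5-fold, and the helicase subunit gene Mcm7 was at -0.40 (0.11 without depth matching). Thinned cells with 3 or more UMIs of dividing cell markers made up 2.64% (1.88% to 3.61%) of Spp1-high and 5.78% (4.63% to 7.11%) of Spp1-zero cells. In cells of 12000 to 20000 UMIs the G2 and mitosis median was -0.13 over 5 measured genes, and Mki67 turned to 0.30. With dividing cells left out the G1 and S median was 0.02, and matched on cluster as well as depth both medians shrank, to -0.32 and -0.05. Cells with both Cdkn2a and Mki67 were 13 of 1437 in each class. Of 20 genes of CDK inhibitors, p53 targets and apoptosis, Cdkn2a alone was 1.5-fold higher and none lower, with a median of -0.12 and the cell cycle inhibitor gene Cdkn1a at -0.18.

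Markers of other cell types stood at the following levels, and their part in the results was not tested. Summed B cell markers were at 5.78 CPM in Spp1-high and 4.52 CPM in Spp1-zero cells, T cell markers at 0.298 and 0.449 CPM, NK cell markers at 0.335 and 0.299 CPM, and fibroblast markers at 0.559 and 0.486 CPM. Mesothelial markers were at 1.34 and 1.42 CPM, with Msln and Krt19 at 0 UMIs in both classes. Neutrophil markers were at 81.5 and 78.6 CPM, with Ly6g at 0 UMIs in both. Monocyte markers, a list that holds Chil3, were at 398 and 732 CPM with Ly6c2 at 0 UMIs. Chil3 alone was at 194 and 497 CPM of this sum. Of 5 measured monocyte markers 1 was 1.5-fold higher, Vcan at 20.8 and 13.5 CPM, and 2 were lower. Small macrophage markers, which hold Retnla, were at 109 and 268 CPM. Eosinophil markers were at 0.373 and 0.224 CPM, dendritic cell markers at 7.42 and 6.58 CPM, and mast cell markers at 134 and 76 CPM, nearly all of it Hdc. The platelet list was at 3642 and 3620 CPM, nearly all of it from a single marker at 3629 and 3610 CPM. Ppbp, Gp1ba, Gp1bb and Treml1 were at 0 UMIs in both classes. Dividing cell markers were at 101 and 213 CPM, and erythroid markers at 21.2 and 248 CPM. Of the 6629 haemoglobin UMIs of the Spp1-zero class, 2 barcodes held 4787 and 1404, or 93.4% together, and in the Spp1-high class 1 barcode held 146 of 570. The 4 haemoglobin genes among the lower genes were therefore not read further, and without barcodes of 100 or more haemoglobin UMIs 27 genes were lower and 10 higher.

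Spp1-high cells were not a cluster of their own. Large macrophages were clustered without Spp1 into 10 clusters, which serve here as a map and not as cell types. The share of Spp1-high cells ran from 9.60% (6.61% to 13.3%) in cluster 7, led by Retnla, Cxcl1 and Chil3, to 44.8% (37.3% to 52.5%) in cluster 8, led by the heat shock genes Hspa1a, Hspa1b and Hspb1. Cluster 1, led by Cdkn2a, Osm and Hdc, held 41.7% (38.3% to 45.1%), and cluster 5, led by Net1, Crebrf and Abca1, 13.9% (10.9% to 17.4%). Cluster depth differed, from a median of 12776 UMIs in cluster 5 to 29060 UMIs in cluster 9. Among the 30 nearest neighbours of a Spp1-high cell a median of 43.3% were Spp1-high too, against 23.3% around a Spp1-zero cell and 30% around any cell.

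**Figure D3:**
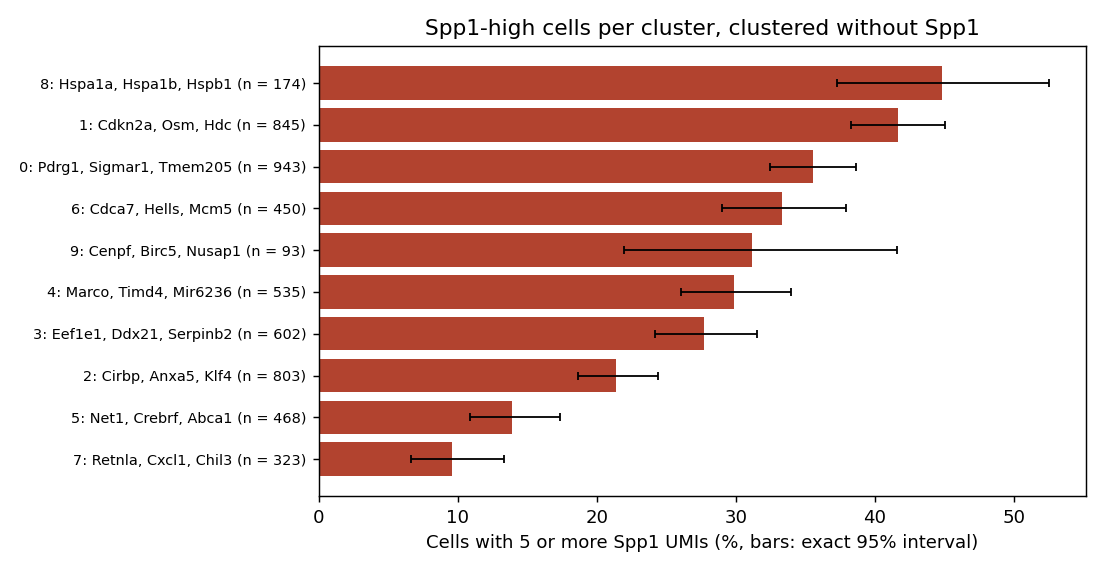
Share of Spp1-high cells (%) in each of 10 clusters of knockout large macrophages made without Spp1, with 3 leading genes and the cell number of each; bars show the share and whiskers its exact 95% interval. Shares range from 9.60% in cluster 7 to 44.8% in cluster 8, and every cluster holds Spp1-high cells.

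Within clusters the leading genes mostly kept their side. Depth matched inside each cluster, Cdkn2a, Pi16, Vmn2r26, Lrg1, Nedd4, Ptgis and Gbp2b were above 0 in 10 of 10 clusters. Chil3, Clec2g, Stmn1, Apoe, F13a1, Lyz1, Fcna, Cd52, Clec4a3 and Pltp were below 0 in 10 of 10. The Apoe ratio ran from -1.20 to -0.45 and the Lrg1 ratio from 0.20 to 0.87. Hspa1a was above 0 in only 4 of 10 clusters, and Arg1 below 0 in 8. Retnla was below 0 in 9, from -3.09 in cluster 7 to 0.20 in cluster 3, and its interval spanned 0 in clusters 1, 2, 3 and 8. Stmn1 came as near to 0 as -0.005 in cluster 1, and its interval lay below 0 in cluster 7 only. Intervals also spanned 0 for Clec4a3 in clusters 1, 2, 7, 8 and 9, and for F13a1 in clusters 4, 7 and 9. Those of Gbp2b spanned 0 in clusters 5, 7 and 9, and those of Pi16, Nedd4 and Vmn2r26 in some clusters. The clusters were built from these same genes and no share over all genes is given, so this is a description.

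The comparison was repeated in cells the rule had left out. In knockout cells that failed the class II limit, 56 cells of 5 or more Spp1 UMIs were matched with 56 of 0 UMIs. All 15 highest genes lay above 0, where 33.9% of all genes did, and all 15 lowest below 0, where 66.1% did. Intervals lay past 0 on that side for 10 of the highest (6.62% of all genes) and 15 of the lowest (17.5%). Ptgis was at 517 and 208 CPM, for a log2 ratio of 1.31 (1.10 to 1.52), Vmn2r26 at a ratio of 1.54, and Lyz1 at -1.62. Class II itself differed between these cells, with medians of 7.78 and 16.2 per 10000 UMIs, and its part in the result was not tested. Marco had a ratio of 0.41 (-0.38 to 1.21) here, unlike in large macrophages, and that difference was not tested.

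In the wild type library, 87 large macrophages with any Spp1 UMI were matched with 87 of none. Here 15 of 15 highest genes lay above 0, where 53.5% of all genes did, although Loxl2 was at 0.00 and Gbp2b at 0.02, and 11 of 15 lowest lay below 0, where 46.5% did. Intervals lay past 0 on that side for 12 of the highest (5.98% of all genes) and 10 of the lowest (5.24%). Cdkn2a was at 164 and 107 CPM, for a log2 ratio of 0.61 (0.33 to 0.89), Hdc at 82.4 and 46.1 CPM, a ratio of 0.83 (0.42 to 1.24), and Pi16 at 115 and 67.9 CPM, a ratio of 0.75. Apoe was at 12043 and 17200 CPM, a ratio of -0.51, Maf at -0.90 and Marco at -1.47 (-1.99 to -0.97).

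Chil3 and Arg1 went the other way in wild type cells. Chil3 was at 12.7 and 3.64 CPM with and without Spp1, for a log2 ratio of 1.57 (0.40 to 2.73), and Arg1 at 91.5 and 54.5 CPM, a ratio of 0.74 (0.36 to 1.12). Stmn1 and Clec4a3 were at 0.25 and 0.06, with intervals that spanned 0. Ccl2 was higher in wild type cells with Spp1, at 98.8 against 36.4 CPM. The wild type class holds cells of 1 or more UMIs, the knockout class cells of 5 or more, so the ratios are of unequal contrasts, and their difference was not tested.

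**Figure D4:**
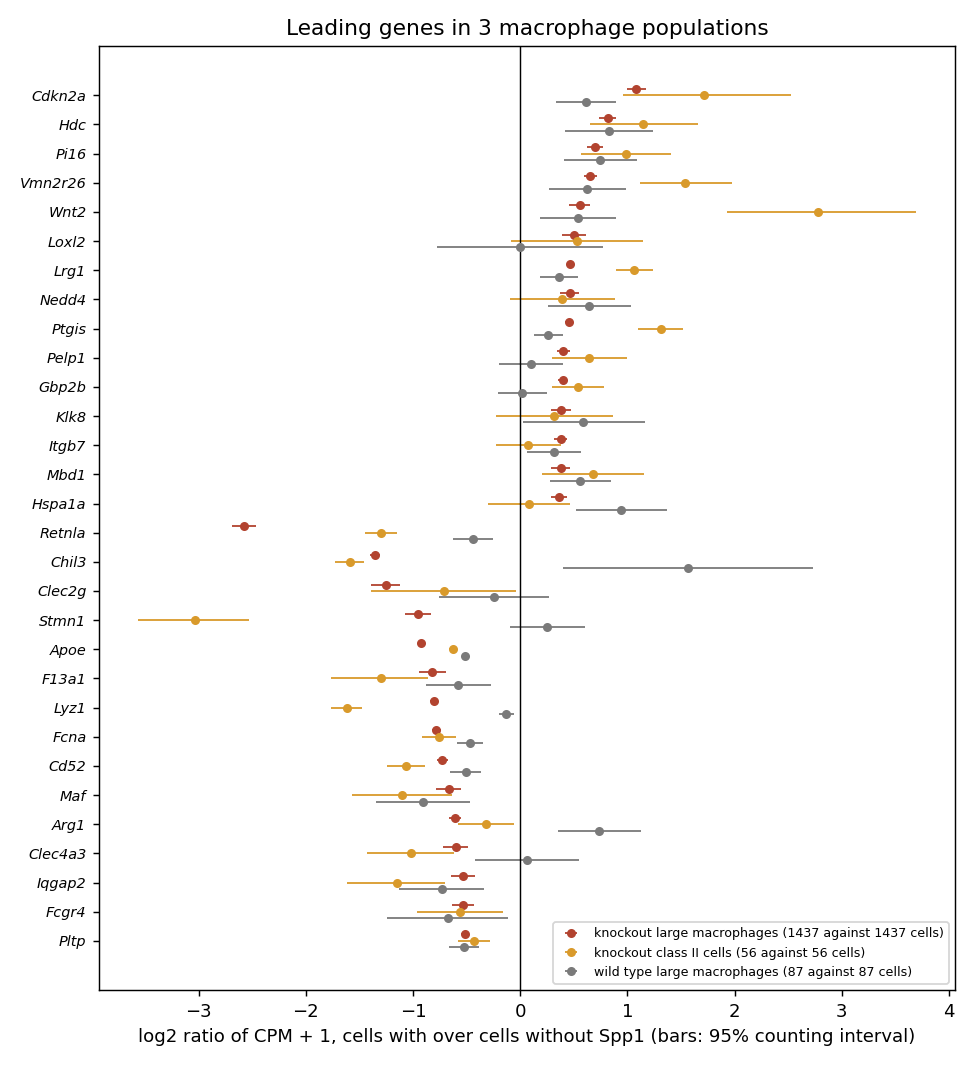
Log2 ratios of CPM + 1 between cells with and without Spp1, for the 15 highest and 15 lowest genes, in knockout large macrophages (red, 1437 against 1437 cells), knockout class II cells (orange, 56 against 56) and wild type large macrophages (grey, 87 against 87, any Spp1 UMI); whiskers are 95% counting intervals. Grey points for Chil3 and Arg1 lie right of 0, at 1.57 and 0.74, while red and orange points lie left of it.

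Spp1 class and library were then set side by side for genes that differ between the libraries. Cxcl2, a neutrophil chemokine gene, was at 415 CPM in Spp1-high, 469 CPM in Spp1-zero knockout and 8418 CPM in wild type Spp1-zero cells. Tnfaip3, a brake on NF-kB signalling, was at 3.32, 4.49 and 135 CPM, and the chemerin-binding receptor gene Ccrl2 at 22, 21.9 and 424 CPM. These genes stood at like levels in both knockout classes and far from the wild type. In wild type cells with Spp1, Cxcl2 was at 8065 CPM, against 8154 CPM in matched cells without it.

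Other genes stepped from wild type over Spp1-zero to Spp1-high cells. Apoe was at 16500 CPM in wild type, 10154 CPM in Spp1-zero and 5338 CPM in Spp1-high cells, and Lyz1 at 2134, 553 and 316 CPM. Retnla was at 705, 168 and 27.4 CPM in the same order. Chil3 broke the pattern, at 13 CPM in wild type, 497 CPM in Spp1-zero and 194 CPM in Spp1-high cells, as did Arg1, at 63.7, 262 and 172 CPM. Of the 15 highest genes the wild type level was below both knockout classes for 10, between them for 4 and above both for 1. Of the 15 lowest genes it was above both for 10, between them for 2 and below both for 3. The same was not counted over all genes, so these counts describe the picked genes only. These wild type levels are of 4106 cells and were not depth matched, and library and genotype cannot be told apart in them.

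**Figure D5:**
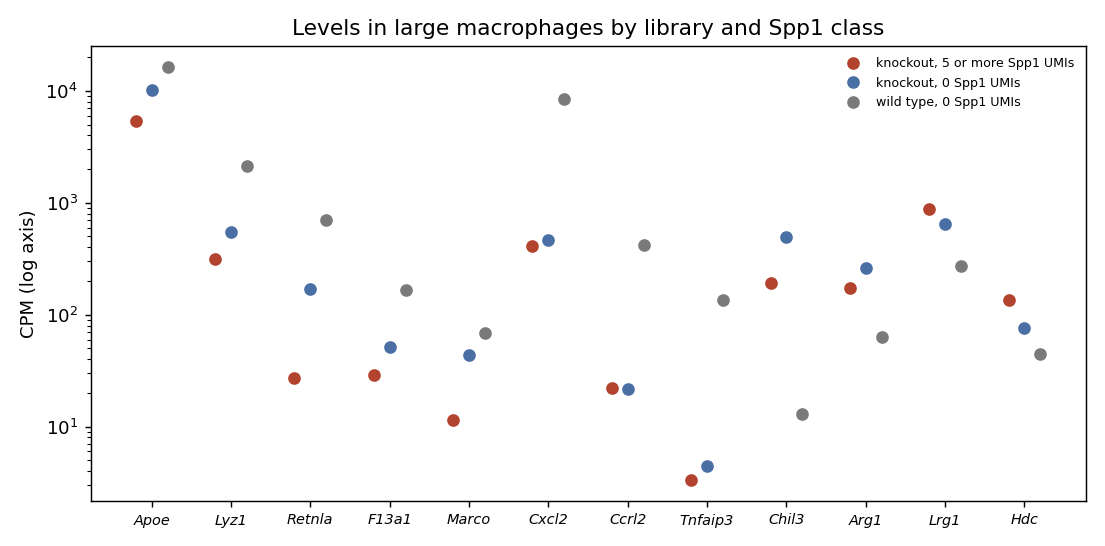
Levels (CPM, log axis) of 12 genes in knockout Spp1-high cells (red), knockout Spp1-zero cells (blue) and wild type Spp1-zero cells (grey); each point is a sum over cells of 1 library. Cxcl2, Ccrl2 and Tnfaip3 have both knockout points close together and far below the grey one, while Apoe, Lyz1 and Retnla step down from grey to blue to red.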

How the data were processed

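UMI counts per gene and barcode were deposited by the authors as 1 matrix per library, and the version of Cell Ranger was 6.1.2, per the file headers; the submitters' processing notes also name bcl2fastq and Seurat 4.1.0. Those notes name mm9, while all 55450 feature IDs occur in GENCODE M21 on GRCm38, so coordinates are given on GRCm38. Counts were used as deposited. Members, gene lists, motifs and comparisons were chosen with earlier results of these data known.

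Spp1-high and Spp1-zero cells were matched in bins of 0.1 on log2 of the UMI total without Spp1 (seed 0). Counts were summed per class and given as CPM, with log2 ratios of CPM + 1 and exact conditional binomial intervals (scipy 1.17.1, 95%). Shares are of cells thinned to 8000 UMIs, with Clopper-Pearson intervals. With 1 library per genotype no test was possible. Genes of 20 CPM or more in the higher class were counted at 1.5-fold. The text names the rule's own genes, the 15 highest and 15 lowest ratios among genes of 50 CPM or more whose interval lay past 0 (leaving out rule, mitochondrial, ribosomal protein, immunoglobulin, sex-linked, haemoglobin and unnamed genes), and up to 4 members of each of 44 lists. Other named genes, among them Sdsl, Rad51b, Ofcc1, Cldn10, Enpp5, Vcan, Cdkn2b, Gata6, Cxcl2, Tnfaip3 and Ccrl2, were chosen after their values were seen, as were the sets without the top 1% of cells and the ratios within clusters.

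Scrublet called 1 of 6360 barcodes (0.0157%) by its own threshold and so did not work; doublets were kept, and the 324 highest scores were left out as an alternative. Clusters came from scanpy 1.11.5 (2000 variable genes without Spp1, 30 components, Leiden resolution 1). TMM factors came from edgeR 4.0.16. The calculation was tested on simulated counts. Promoter sequences came from RefSeq, which matched 137 of 174 named genes. In all, 22 alternatives were run, 4 of them chosen after seeing the data (haemoglobin, shared barcodes, the UMI window and cluster matching).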

Additional observations from a re-analysis of the deposited data

How the results depend on the processing

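No paired analysis was possible because each genotype has 1 library and the labels give no replicate numbers. Of 22 alternatives, 19 recompute the ratio of a gene (the other filters and the 2-fold limit leave it as it is), and over these 0 of 570 ratios of the 30 highest and lowest genes reversed. These genes were picked as the extremes of the main ratio and every setting used the same library. The values are thus not independent, and few reversals follow from the choice. Of 2717 ratios of the 143 other named genes, 17 reversed. In 23 of the 570, from 15 genes, the ratio shrank by over 1.5 times, 11 of them against cells of 1 to 4 Spp1 UMIs. Matched on depth and cluster Stmn1 was at -0.0874, Hspa1a at 0.021 and Hdc at 0.54; without depth matching Stmn1 was at -0.12, Gbp2b at 0.22 and Arg1 at -0.40; in the UMI window Wnt2 was at 0.32 and Stmn1 at -0.26. Counts of higher genes moved to 2 against cells of 1 to 4 Spp1 UMIs, 34 with a 5 CPM filter, 69 with no filter and 1 at 2-fold. Counts of lower genes moved to 19 without depth matching, 16 against cells of 1 to 4 UMIs, 49 without the class II limit, 94 with a 5 CPM filter, 187 with no filter, 12 at 2-fold and 16 when matched on depth and cluster. Fewer genes pass at 2-fold, and more enter with a lower filter, by construction; for the others the cause was not tested. The share of Spp1-high cells moved to 23.9% at 10 UMIs, 33.6% at 3 UMIs, 24.5% at 5 per 10000 UMIs, 23.2% on thinned cells and 27.2% without the class II limit. Log2 ratios that reversed were, without depth matching, Ccnd1 0.12, Tgfbi 0.064, Mcm7 0.11, Mcm3 0.0914, Mcm6 0.11 and Mcm4 0.12. Against cells of 1 to 4 UMIs Il18 was at 0.0026, and without dividing cells Mcm7 was at 0.11, Mcm6 at 0.0777 and Mcm4 at 0.17. In cells of 12000 to 20000 UMIs Atf3 was at -0.0156, Fh1 at 0.0139, Hspb1 at -0.0258, Mcm4 at 0.0365 and Mki67 at 0.30, and matched on depth and cluster Atf3 was at -0.0457 and Mcm4 at 0.0312. A count of 3 UMIs in a class corresponds to 0.112 CPM, so genes near that level cannot be compared at this depth.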

Other observations

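A few lowly expressed genes stood at the upper end of the comparison and belong to no list. Sdsl, a serine dehydratase-like enzyme gene, was at 20.7 CPM in Spp1-high and 10.8 CPM in Spp1-zero cells, and at 6.29 CPM in wild type cells. Rad51b, a recombination gene, was at 36.2 and 20.7 CPM with 36.7 CPM in wild type cells, and the claudin gene Cldn10 at 29.6 and 18.4 CPM with 11.1 CPM. At the lower end Hal, the histidine ammonia-lyase that degrades the amino acid Hdc uses, was at 17.0 CPM in Spp1-high, 34.0 CPM in Spp1-zero and 59.5 CPM in wild type cells. Hdc had the opposite order, at 134, 75.9 and 44.5 CPM. These genes were picked after their values were seen, and no test was made.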
